A study of Mus musculus with 20 samples.

Results

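Mouse miRNAs with a number of 5000 or above, the late-numbered miRNAs, were described in small RNA libraries of embryonic midbrain neurons. Members were the lines named mmu-miR-N with N of at least 5000 and a raw count of at least 100 summed over the 20 libraries, which gave 71 of the 1886 miRNA lines in the files. Of the 785 lines with such a number, 155 had no read and 559 had fewer than 100, whereas 79 of 281 lines numbered from 1000 to below 5000 (the middle numbers) and 476 of 820 lines numbered below 1000 or named let-7 (the low numbers) reached 100. Members were selected on their summed count, so their abundance is given as a description. Just inside the minimum lay miR-6997-5p with 101 reads, miR-6960-5p with 102 and 4 members with 103, and just outside it miR-5620-3p with 92, miR-7044-5p with 91 and miR-7021-5p with 87. Most DIV5 libraries were deeper than most DIV1 libraries, so the sum weighs DIV5 more.

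The cells were primary neurons from the ventral mesencephalon of C57Bl6/J embryos of day 12.5, freed of meninges and grown serum-free in Neurobasal-A with B27, all without any genetic change named in the labels. Cultures were taken after 1 or 5 days in vitro (DIV1, DIV5), each with no added factor (control) or with 10 ng/ml GDNF, glial cell line-derived neurotrophic factor, a survival factor of dopaminergic neurons. Each of these 4 groups had 5 libraries, so 20 libraries in all. The study asks what GDNF does to the miRNAs on each day.

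A miRNA is a short RNA cut from a hairpin by Drosha and Dicer, and its seed, bases 2 to 8 from the 5′ end, pairs with target mRNAs. In a mirtron the hairpin is a short intron or lies against an intron end, so that splicing takes the place of the Drosha cut. miRNA numbers are given in order of submission, and most high numbers come from sequencing surveys, in which fragments of other RNAs can also be entered as miRNAs.

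Of the 71 members, 62 matched a mature sequence in RefSeq (build GRCm38.p6). The sequences below are those of the most abundant members and of the members that carry the day and GDNF results, with the seed in capitals. miR-6239 lies at chr14:117953768-117953787 (minus strand), miR-6236 at chr9:110281353-110281371 (plus), miR-6240 at chr5:114851973-114851998 (plus) and miR-5126 at chr1:84695890-84695911 (plus), all outside genes annotated on the same strand. miR-6944-3p lies at chr13:55477681-55477703 (minus) in an intron of Dbn1, the gene of the actin-binding protein drebrin. miR-7068-3p lies at chr8:72470016-72470036 (minus) in an intron of Cherp that an annotated Cherp transcript retains, so that it also overlaps an exon. miR-6538 lies at chr12:26414970-26414988 (minus) in an intron of Rnf144a, and miR-6937-5p at chr12:28679325-28679348 (plus) in an intron of Adi1. miR-8114 lies at chr1:153899989-153900009 (plus) in an exon of Glul, the glutamine synthetase gene. miR-5121 lies at chr7:45126925-45126945 (minus) inside the small nucleolar RNA Snord33 and an annotated exon of Rpl13a, the ribosomal protein gene that hosts it. miR-6540-3p lies at chr16:42303386-42303406 (minus) in an intron of Gap43, a gene of growing axons. miR-6516-5p lies at chr11:117077370-117077391 (plus) inside a small Cajal body RNA gene, Gm26083, within Snhg20.
miR-6239: uAGCGUUGgaucacucggug
miR-6236: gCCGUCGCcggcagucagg
miR-6240: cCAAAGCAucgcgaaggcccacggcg
miR-6944-3p: uAACUCUUcccuugugcccucag
miR-7068-3p: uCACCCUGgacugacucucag
miR-6538: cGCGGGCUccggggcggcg
miR-5126: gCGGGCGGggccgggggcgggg
miR-6937-5p: uAGCUGUAagggcugggucugugu
miR-8114: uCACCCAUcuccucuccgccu
miR-5121: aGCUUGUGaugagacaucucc
miR-6540-3p: uCUGAAGCuugcuuaccucca
miR-6516-5p: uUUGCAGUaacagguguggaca

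No member with a sequence shared its seed with another such member, so these 62 form no seed family. The 9 members without a sequence could not be compared. Among all lines with at least 100 summed reads and a sequence, only miR-6240 shared its seed with another miRNA, miR-330-3p.

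The members fell into sequence groups. Of the 62, 26 (41.9%) ended within 2 bases of the 3′ end of an annotated intron, against 8 of 70 miRNAs (11.4%) with middle numbers and 4 of 412 (0.971%) with low numbers that also reached 100 reads. These 26 lay in 26 genes and all were named 3p, and none of the 62 lay at the 5′ end of an intron. The introns were 73 to 36269 bases long with a median of 239, and 12 had at most 120 bases. In 4 cases the hairpin and the intron had the same length: 96 bases for miR-6944-3p in Dbn1, 74 for miR-7068-3p in Cherp, 73 for miR-6958-3p in Dennd6b and 86 for miR-7070-3p in Fbxw9. The hairpin of miR-6944 is printed with its mature 3p arm in capitals because it shows that layout, the intron's start at the left and the splice acceptor AG as the last bases of the miRNA.
miR-6944 hairpin: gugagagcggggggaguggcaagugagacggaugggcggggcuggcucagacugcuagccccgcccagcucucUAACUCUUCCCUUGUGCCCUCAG

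The band that starts at 6900 held 22 of the 26 members at an intron end, among its 31 with a sequence. A GC content of at least 70% was found in 7 members (11.3%), against 7.14% of the middle and 1.94% of the low numbers. miR-5126 was made of G and C alone, and miR-6538 had a GC content of 94.7%. A uridine as the first base, common in miRNAs bound by Argonaute, was found in 38 members (61.3%), against 41.4% of the middle and 37.9% of the low numbers. The 26 members at an intron end had it in 21 cases (80.8%) and the other 36 in 17 (47.2%). An exact copy of the mature sequence in another annotated transcript was present for 15 members (24.2%), against 40% and 22.3%. In annotated small RNA transcripts (small nucleolar, Cajal body, small nuclear, ribosomal or unclassed) such a copy was present for 2 of 62 members. It was present for 10 of 70 middle and 3 of 412 low numbers. Beyond these annotated transcripts, the references held no full ribosomal, transfer or small nuclear RNA sequences, and inexact matches were not sought. Whether members, miR-6239 among them, match such RNAs in those ways was therefore not checked.

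**Figure D1:**
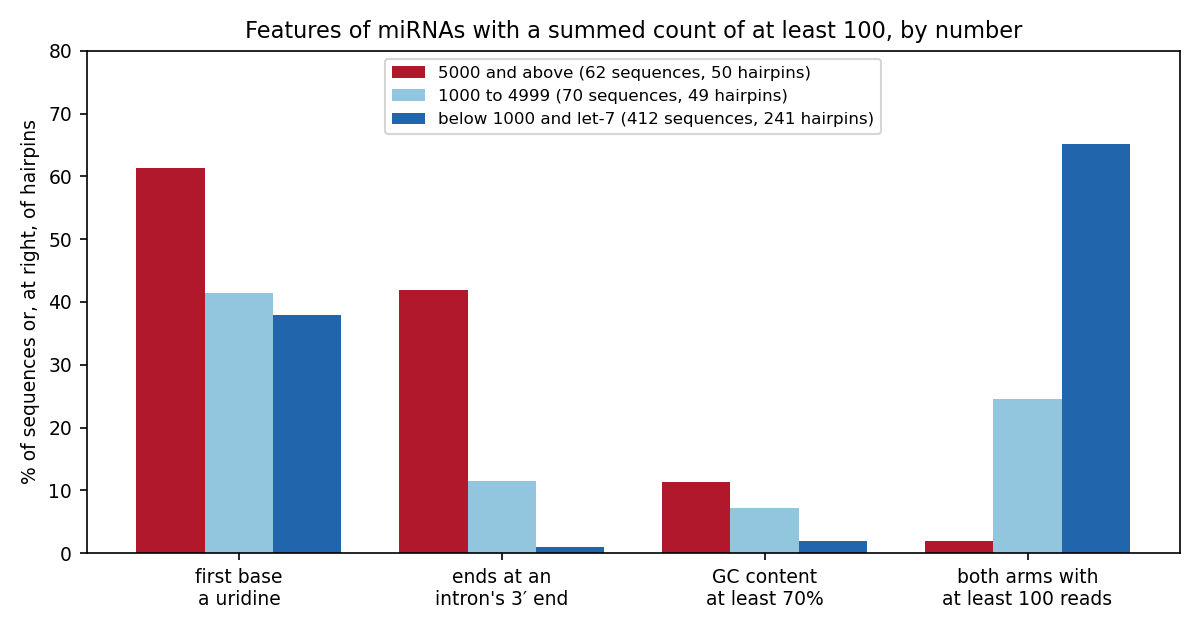
Bars give the % of mature sequences (left 3 features) or of hairpins with both arms listed (right) in miRNAs with at least 100 summed reads, for members (red), middle numbers (light blue) and low numbers with let-7 (dark blue). Ends at introns stood at 41.9% in members against 0.971% in the low numbers, while hairpins with both arms at 100 reads stood at 2% against 65.1%.

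All 62 members with a sequence had a hairpin in RefSeq. The fold predicted by RNAfold had a median free energy of −39.1 kcal/mol per 100 bases, against −41.9 for the middle and −43.7 for the low numbers. The mature sequence lay within 1 arm of the predicted fold in 61 of the 62. The exception was miR-6239, the most abundant member. Its hairpin of 105 bases held a near-copy of the mature sequence, which starts at base 61: the window that starts at base 31 matched it at 19 of 20 bases (95%), with the substitution G17A, counted from 1 at the 5′ end of the mature sequence. The highest such value in any other member was 65%, in miR-8112, and the median was 46.4%. The hairpin is printed with the mature sequence in capitals, and the near-copy is given below it.
miR-6239 hairpin: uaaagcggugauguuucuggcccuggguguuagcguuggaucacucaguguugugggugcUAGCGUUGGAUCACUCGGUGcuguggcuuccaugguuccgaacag
near-copy in the hairpin: uagcguuggaucacucagug

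Both arms of the hairpin were listed for 50 members' hairpins, and the 3p arm had more reads in 36 (72%), against 59.2% for the middle and 46.9% for the low numbers. The median share of the more abundant arm was 97.3%, against 94.9% and 97.1%. miR-6540 was the only hairpin of which both arms were members, with 10885 reads from the 5p arm and 1540 from the 3p arm. It is 1 hairpin of 50 (2%) with at least 100 reads on the lesser arm, against 24.5% and 65.1%, a share that also depends on the members' low counts. For miR-6944-3p, 26330 reads stood against 9 reads of its 5p arm.

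The total count assigned to miRNAs was between 420118 and 4324505 reads per library, so a single read was worth 0.231 to 2.38 CPM, the library-scaled count used here, and a count of 0 allows up to 0.694 to 7.14 CPM (3 reads, counting error only). The DIV5 libraries formed separate sets: reads without a miRNA feature were 17.7 to 19.5% in replicates 1 and 2 and 9.51 to 13.3% in replicates 3 to 5, with or without GDNF. On DIV1 this no-feature share was 16.5 to 22.6%. Total counts were 420118 to 1761023 on DIV1, 1061619 to 1907937 in DIV5 replicates 1 and 2, and 2969524 to 4324505 in DIV5 replicates 3 to 5. For replicates 3 to 5, day therefore cannot be told apart from depth and the no-feature share. DIV5 control libraries 1 and 5 stood apart in an earlier analysis of these files, so counts are also given without them where this matters. Markers of endothelium and smooth muscle had a median sum of 3404 and 2928 CPM on DIV1 and 551 and 598 CPM on DIV5 (control and GDNF), with miR-126a-5p listed at 0 in every library. Most reads of this list were of miR-143-3p, with 50385 summed reads against 1602 of miR-126a-3p and 325 of miR-145a-5p. Blood markers had medians of 43.0 and 48.5 CPM on DIV1 and 9.38 and 8.32 CPM on DIV5, and oligodendrocyte lineage markers 560.1 and 568, then 241 and 178 CPM, with 2 of their 3 markers listed at 0 in every DIV1 library. Markers of liver and skeletal muscle summed to at most 6.94 CPM except in 1 DIV5 control library with 37.7 CPM. Neuronal markers held 54811 to 106872 CPM, with miR-138-5p listed at 0 in every library. Most of their reads were of miR-9-5p, with 2899923 summed reads against 257269 of miR-128-3p, 217353 of miR-124-3p and 15799 of miR-137-3p. In bulk libraries, fewer cells of a type and less RNA per cell cannot be told apart.

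Most late-numbered miRNAs were rare, and miR-6239 held most of their reads. Its summed count was 1713377, and it made up 77.0 to 96.4% of the members' reads in a library. The mean level over 20 libraries, scaled with TMM factors, was at least 100 CPM for 9 members, 10 to 100 CPM for 18 and below 10 CPM for 44. A read was present in all 20 libraries for 56 members and in at least 15 libraries for each of the 71. Together the other 70 members held 0.476% ± 0.0131 of counts on DIV1 without GDNF (SD, n = 5 in each group), 0.446% ± 0.0412 on DIV1 with GDNF, 0.357% ± 0.0589 on DIV5 without and 0.362% ± 0.098 on DIV5 with GDNF. On DIV5 their share was 0.401 to 0.481% in replicates 1 and 2 and 0.267 to 0.336% in replicates 3 to 5, ranges that do not overlap.

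On DIV1, miR-6239 took 10.3, 10.2, 10.4, 13.4 and 5.32% of counts in control libraries 1 to 5, and 6.82, 6.96, 8.16, 11 and 3.56% in GDNF libraries 1 to 5. Replicate 4 was highest and replicate 5 lowest in both groups. On DIV5 it took 4.34, 3.34, 2.80, 1.61 and 3.07% in control libraries and 6.28, 4.14, 2.91, 1.21 and 0.894% in GDNF libraries. Replicate 1 was highest in both, and the lowest DIV1 control library lay above every DIV5 control library, whereas with GDNF the days overlapped. By exact permutation tests (two-sided, adjusted over 4 comparisons, smallest possible p = 0.00794), the mean share without GDNF differed by −6.90 percentage points on DIV5, from 9.93% ± 2.92 to 3.03% ± 0.985 (SD, n = 5 each, p = 0.00794, adjusted p = 0.0317). With GDNF it went from 7.29% ± 2.67 to 3.09% ± 2.22 (SD, n = 5 each, exact permutation p = 0.0317, adjusted p = 0.0635), which did not pass.

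GDNF against control differed in the mean miR-6239 share by −2.64 points on DIV1 (exact permutation p = 0.183, adjusted p = 0.243) and by 0.0537 points on DIV5 (exact permutation p = 0.968, adjusted p = 0.968). On DIV1 the GDNF library had the lower share in 5 of 5 pairs with the same replicate number, for which the smallest possible exact sign-flip p is the one found, 0.0625. DIV1 did not meet the pairing rule given below, and DIV5 did. In CPM, miR-6239 was higher with GDNF in 3 and lower in 2 of the same-numbered DIV5 pairs. The DIV5 difference in mean share changed sign with the library set: it was 1.37 points in replicates 1 and 2 (exact permutation p = 0.667) and −0.821 points in replicates 3 to 5 (exact permutation p = 0.300).

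**Figure D2:**
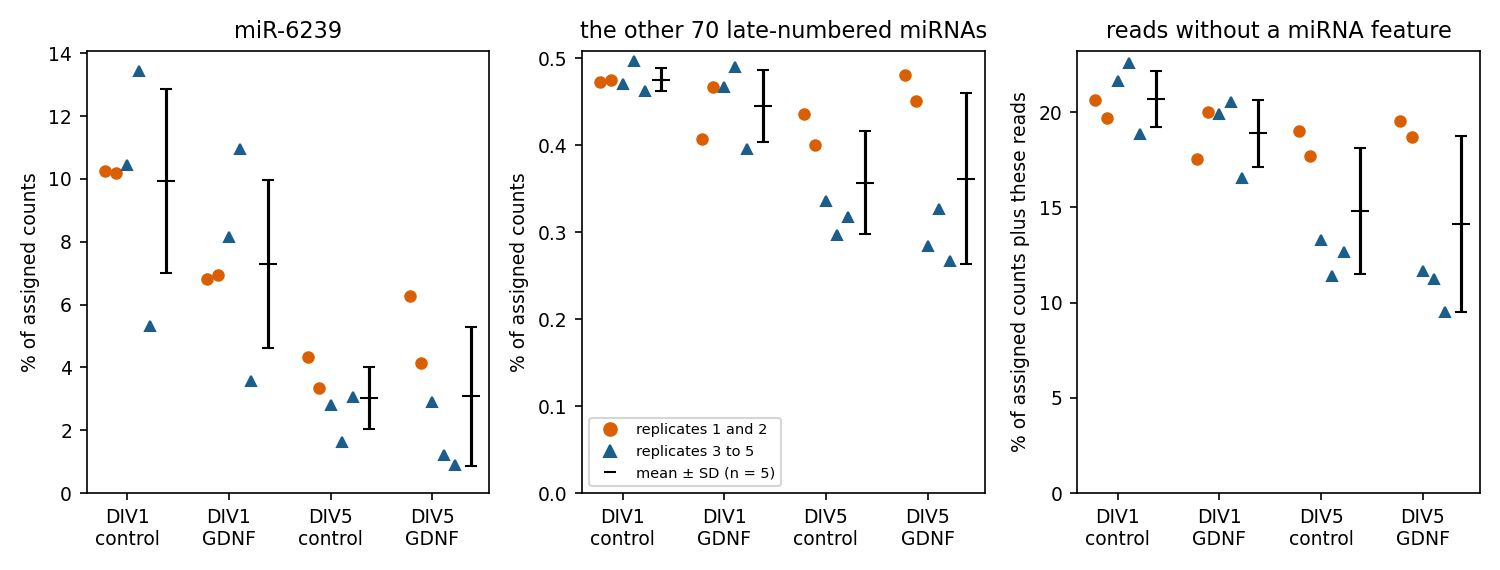
Share of assigned counts of miR-6239 (left) and of the other 70 members together (middle), and reads without a miRNA feature as % of assigned counts plus these reads (right), by group, with 1 point per library and the mean ± SD of 5. On DIV5, replicates 1 and 2 (circles) lie above replicates 3 to 5 (triangles) for the other members and for reads without a feature.

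Across libraries, miR-6239 tracked the reads that fell outside any miRNA feature. On DIV1 its share had a Pearson r of 0.893 with the no-feature share (n = 10, permutation p = 0.00062, adjusted over 4 relations p = 0.00248) and a Spearman rho of 0.903 (permutation p = 0.00082). Without the 2 libraries farthest from the median r was 0.72. In DIV5 replicates 3 to 5, r was 0.838 (n = 6, exact permutation p = 0.0194, adjusted p = 0.0389), 0.817 without the 2 farthest, and rho was 0.829 (exact permutation p = 0.0583, adjusted p = 0.117). Against the total count r was 0.371 on DIV1 (permutation p = 0.292) and 0.674 in DIV5 replicates 3 to 5 (exact permutation p = 0.178). The permutations treat libraries as exchangeable, whereas deviations of same-numbered DIV5 libraries correlated above 0.1. If the numbers mark pairs, the 6 libraries are 3 pairs and their p-values may be too small. The best match of DIV5 control libraries 3 and 5 was a GDNF library of another number (5 and 4), so the pairs are not certain. On DIV1, replicate 4 was highest and replicate 5 lowest in both shares, with and without GDNF. The DIV1 p-values may therefore also be too small. The other miRNA reads enter the denominators of the miR-6239 share and the no-feature share, so fewer of them raise both. The p-values take no account of this. The miRNAs whose log2 CPM was most like that of miR-6239, by Spearman's rho within each day averaged over the days (10 libraries each), were miR-1957a (0.915), the members miR-6236 (0.903) and miR-5126 (0.824), miR-714 (0.812) and miR-34a-5p (0.764). These values of rho are a description, since all levels share the libraries' scaling.

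The level differences were tested with edgeR's quasi-likelihood test over the 542 miRNAs that passed a filter on low counts, with Benjamini-Hochberg adjustment and calls at an adjusted p below 0.05. The filter kept 49 of the 71 members. The other 22 had summed counts of 101 to 158 and mean levels of 2.17 to 4.51 CPM. A member that passed only through a group where it is high had to differ, so the counts below describe the tested members alone.

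By edgeR's dispersion, the spread of most tested members between libraries of a group was near that of other miRNAs at the same level, with some far above it. The median CV (SD over mean) was 26.9 and 35.4% in DIV1 control and GDNF and 34.3 and 32.3% in DIV5 control and GDNF. Over all 542 it was 21.4, 22.0, 26.1 and 21.3%, not matched for level. edgeR draws a miRNA's tagwise dispersion towards the trend over miRNAs of its level, so likeness to that trend is partly built in. The ratio of the 2 (tagwise over trended dispersion) had a median of 0.659 in the 49 members and 0.60 in all 542. It was above 1 in 16 members (32.7%) and in 25.1% of all. miR-6239 had 5.19, the 9th highest of all 542. Then came miR-6538 with 2.72 and miR-5126 with 2.10. At the other end, among members with a mean of at least 10 CPM, miR-7068-3p had 0.258, miR-6977-3p 0.271 and miR-8114 0.316. Below that level miR-6418-3p had 0.241, the lowest of the 49. The sequence groups differed: the 7 members with at least 70% GC had a median of 1.86 with 6 above 1, and the 18 tested members at an intron end had a median of 0.58 with 3 above 1.

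**Figure D3:**
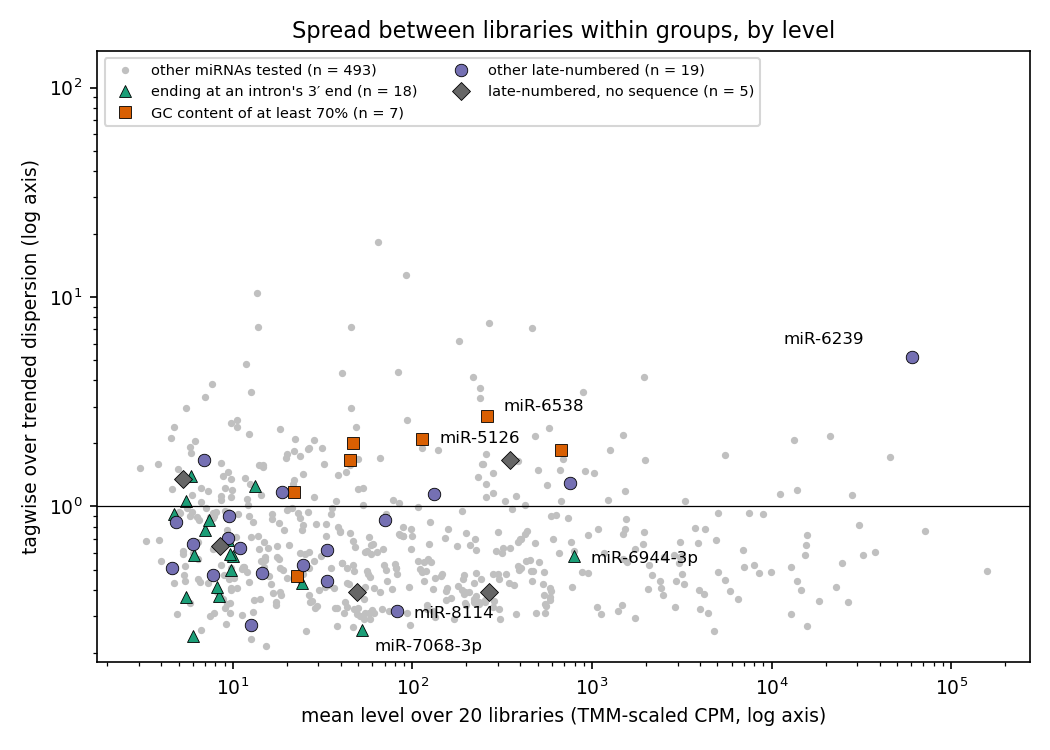
Ratio of tagwise to trended dispersion against mean TMM-scaled CPM over 20 libraries, both on log axes, for 542 tested miRNAs, with members marked by sequence group and other miRNAs in grey. miR-6239 lies at 5.19, 6 of 7 GC-rich members (squares) lie above 1 and 15 of 18 members at an intron end (triangles) lie below it.

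miR-5126 shows the spread among GC-rich members. It had 94.3, 138, 141, 145 and 116 CPM in DIV1 control and 56.9, 116, 105, 125 and 64.9 CPM in DIV1 GDNF libraries 1 to 5. On DIV5 it had 171, 141, 90.1, 53.9 and 80.9 CPM in control and 228, 233, 79.5, 51.9 and 42.6 CPM in GDNF libraries. Replicates 1 and 2 were the highest of both DIV5 groups, and all 4 groups overlapped. The mean of DIV5 replicates 1 and 2 over that of replicates 3 to 5 was 2.91 for miR-5126, 3.19 for miR-6538, 2.68 for miR-5627-3p, 2.32 for miR-6239 and 2.04 for miR-6236. It was 1.08 for miR-6944-3p, 0.945 for miR-7068-3p and 0.892 for miR-8114. Its median was 1.21 over the 49 members and 0.988 over all 542, and it was above 1.5 in 13 members (26.5%) and in 13.3% of all. Of the 7 members with at least 70% GC, 6 were above 1.5, and of the 18 at an intron end 1 was.

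**Figure D4:**
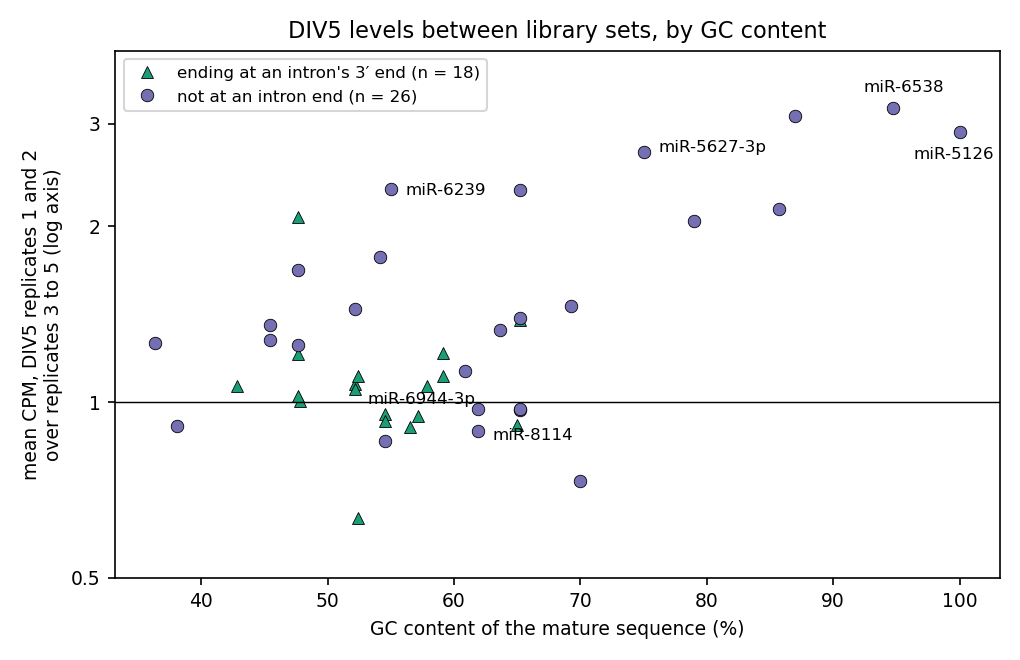
Mean CPM in DIV5 replicates 1 and 2 over that in replicates 3 to 5 (log axis) against the GC content of the mature sequence (%), for the 44 tested members with a sequence. miR-6538 at 3.19 and miR-5126 at 2.91 lie at the upper right, and members at an intron end (triangles) lie near 1 with a median of 1.06.

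Between DIV1 and DIV5, late-numbered miRNAs that changed mostly fell. Without GDNF, 0 of the 49 tested members rose and 20 fell, where 31.4% of all 542 tested miRNAs rose and 29.3% fell (60.7% called in either direction). The median log2 fold change was −0.48 in the members and 0.10 in all. With GDNF, 2 members rose and 16 fell, where 25.1% of all rose and 27.3% fell (52.4% either way), with medians of −0.33 and 0.00. A call in both comparisons was made for 14 members, which is 70% of the 20 and 77.8% of the 18, and 25 were called in neither. Of the tested members 28.6% were called in both and 51.0% in neither, against 45.2% and 32.1% of all 542 tested miRNAs, for which the shared calls were 74.5% and 86.3% of each comparison's calls. The 2 comparisons share no library but 1 estimate of the spread. With DIV5 replicates 1 and 2 only, nearer to DIV1 in depth and no-feature share, 12 members were called without GDNF. That setting also has fewer libraries, and its calls over all miRNAs are not given here, so the 12 are not set against a background share. By number, 11 of 21 tested members of the band that starts at 6900 fell without GDNF, as did 4 of 8 from 5000, 3 of 7 from 6000 and 2 of 3 from 8000, and none of 6 in the band from 6500 or of 4 between the bands from 6900 and 8000. The summed markers of endothelium and smooth muscle, mostly reads of miR-143-3p, were also lower on DIV5. Their ranges were 2734 to 3934 CPM on DIV1 and 201 to 1792 CPM on DIV5, and their part in the result was not tested.

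The split between rises and falls depended on scaling and filter. With library sizes that include the reads without a feature and no TMM factor, the median of all tested miRNAs moved by 0.36 without GDNF and by 0.23 with GDNF, and 5 members rose and 13 fell in each comparison. With no filter, all 71 members were tested, of which 4 rose and 15 fell without GDNF and 6 rose and 9 fell with it. Calls over all miRNAs in these settings are not given here, so the counts are not set against a background share.

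**Figure D5:**
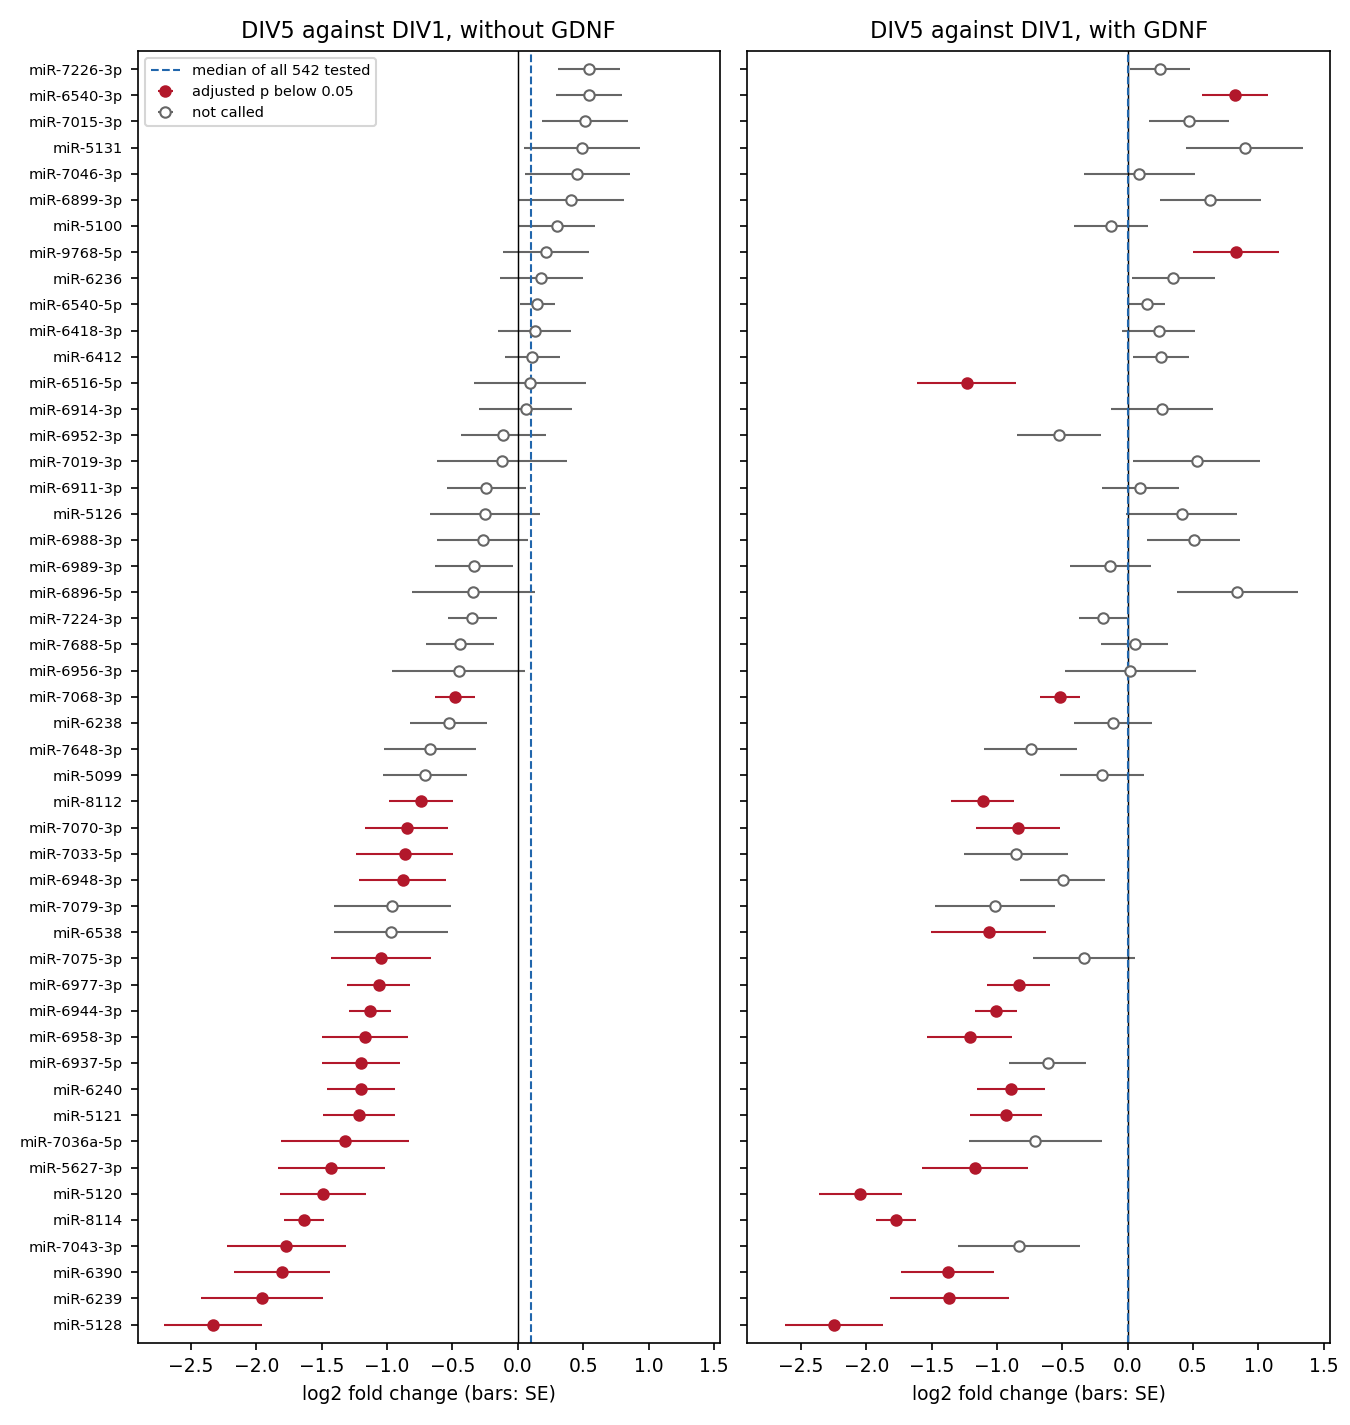
log2 fold changes of DIV5 against DIV1 (bars, SE) of the 49 tested members without GDNF (left) and with GDNF (right), with calls at an adjusted p below 0.05 filled and the median of all 542 tested miRNAs dashed. Filled points lie at or below −0.48 on the left, and on the right only miR-6540-3p and miR-9768-5p are filled above 0.

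miR-6944-3p, at the 3′ end of a Dbn1 intron, had the highest mean level over the 20 libraries after miR-6239 and fell on DIV5. On DIV5 alone miR-6236 stood above it, with means of 737 and 738 CPM against 498 and 533 CPM. It had 1321, 1151, 919, 943 and 1113 CPM in DIV1 control libraries and 499.7, 537, 514, 543 and 398 CPM in DIV5 control libraries. With GDNF it had 1410.2, 924, 904, 1039 and 1083 CPM on DIV1 and 697, 420.2, 415, 545 and 587 CPM on DIV5. Every DIV1 library lay above every DIV5 library. The log2 fold change was −1.13 without GDNF (SE 0.160, edgeR adjusted p = 5.05e-06) and −1.01 with GDNF (SE 0.159, adjusted p = 2.33e-05).

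miR-8114, from a Glul exon, separated the days in the same way. It had 97.0, 126, 152, 128 and 115 CPM in DIV1 control and 118, 146, 154, 111 and 112 CPM in DIV1 GDNF libraries. On DIV5 it had 36.3, 33.5, 42.3, 42.7 and 42.8 CPM in control and 43.1, 30.9, 42.1, 33.9 and 38.2 CPM in GDNF libraries. Every DIV1 library lay above every DIV5 library here too. Its log2 fold change was −1.63 without GDNF (SE 0.153, edgeR adjusted p = 3.45e-08) and −1.77 with GDNF (SE 0.153, adjusted p = 1.99e-08), the smallest adjusted p among members in both.

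miR-5128 had the largest fall without GDNF (log2 −2.33, SE 0.373, edgeR adjusted p = 2.37e-05), from 10.8 to 18.3 CPM on DIV1 to 0.987 to 4.8 CPM on DIV5, and its ranges were also apart with GDNF (log2 −2.25). Like the other members named outside the naming rule, it was named after its values were seen. miR-6240 had 783, 884, 1293, 1343 and 1048 CPM in DIV1 control and 522, 719, 306, 438 and 349 CPM in DIV5 control libraries, ranges that do not overlap. It fell by 1.20 on the log2 scale without GDNF (SE 0.260, edgeR adjusted p = 0.000551) and by 0.89 with GDNF (SE 0.258, adjusted p = 0.00664). miR-6390, within the long noncoding RNA Gm6145, fell by 1.81 without GDNF (SE 0.367, edgeR adjusted p = 0.000277) and by 1.38 with it.

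By the edgeR test miR-6239 fell by 1.96 on the log2 scale without GDNF (SE 0.465, edgeR adjusted p = 0.00155), and by 1.36 with GDNF (SE 0.457, adjusted p = 0.0183). The call with GDNF was lost without DIV1 GDNF library 4 (log2 −1.02, edgeR adjusted p = 0.0810), with no filter (adjusted p = 0.118), in a fit of these 10 libraries alone (adjusted p = 0.0768) and with DIV5 replicates 1 and 2 only (adjusted p = 0.234). miR-5121, which overlaps Snord33, had 82.8 to 146 CPM in DIV1 control and 29.1 to 77.9 CPM in DIV5 control libraries and fell by 1.21 (SE 0.277, edgeR adjusted p = 0.000816). miR-6937-5p fell by 1.20 without GDNF (SE 0.298, edgeR adjusted p = 0.00182) and had −0.61 with it (adjusted p = 0.0864). Without GDNF the calls of miR-5121, miR-6937-5p and miR-6977-3p (log2 −1.07) were lost with DIV5 replicates 1 and 2 only.

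Other members at an intron end also fell. miR-7068-3p, with the Cherp intron as its hairpin, had 57.9, 41.2, 71.2, 62.8 and 48.0 CPM in DIV1 control and 34.9, 45.4, 42.5, 42.1 and 36.7 CPM in DIV5 control libraries, which overlap. Its log2 fold change was −0.48 (SE 0.154, edgeR adjusted p = 0.0107), and −0.52 with GDNF, where the days did not overlap. The call without GDNF was lost without DIV1 control library 3 (adjusted p = 0.0523), without DIV1 GDNF library 4 (adjusted p = 0.0598), without DIV5 control libraries 1 and 5 (adjusted p = 0.0810) and with DIV5 replicates 1 and 2 only (adjusted p = 0.111). With no filter it was −0.26 (edgeR adjusted p = 0.474), and −0.25 with GDNF (adjusted p = 0.512). With library sizes that include the reads without a feature it was −0.12 (edgeR adjusted p = 0.540), and −0.28 with GDNF (adjusted p = 0.148). The members whose hairpins equal an intron in Dennd6b and Fbxw9, miR-6958-3p and miR-7070-3p, fell by 1.17 and 0.85 without GDNF and by 1.21 and 0.84 with GDNF. In all, 7 of the 18 tested members at an intron end (38.9%) fell without GDNF and 4 (22.2%) with it, against 29.3% and 27.3% of all 542, and none rose.

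Of the 7 members with at least 70% GC, 2 (28.6%) fell between the days without GDNF and 3 (42.9%) with it, against 29.3% and 27.3% of all 542, and none rose. miR-6236 had 548 to 756 CPM in DIV1 control and 416 to 985 CPM in DIV5 control libraries, which overlap, and a log2 fold change of 0.18 (SE 0.317, edgeR adjusted p = 0.628). miR-5126 had −0.25 without GDNF and 0.41 with it, neither called. miR-6538 had −0.97 without GDNF (edgeR adjusted p = 0.0627) and −1.06 with it (SE 0.438, adjusted p = 0.0486). That call was lost in 19 of 33 alternatives. Among those that leave out 1 library, it held only when the library dropped was replicate 1 of DIV1 GDNF, replicate 1, 4 or 5 of the DIV5 controls, or replicate 1 or 2 of DIV5 GDNF, and the adjusted p of the others was up to 0.138. miR-5627-3p fell by 1.43 (SE 0.409, edgeR adjusted p = 0.00509) and by 1.17 (SE 0.406, adjusted p = 0.0211). Its call with GDNF was lost without DIV1 GDNF library 4 (edgeR adjusted p = 0.0895) or DIV5 GDNF library 3, 4 or 5 (adjusted p = 0.0543 to 0.0619), and both calls were lost with DIV5 replicates 1 and 2 only.

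miR-6540, from the Gap43 intron, was the member hairpin with both arms abundant, and neither arm was called lower. The 5p arm had 221, 222, 223, 251 and 274 CPM in DIV1 control and 264, 333, 239, 293 and 195 CPM in DIV5 control libraries, which overlap, with a log2 value of 0.15 in each day comparison. The 3p arm had 15.3, 26, 38, 19.9 and 20.8 CPM in DIV1 GDNF and 69.7, 43.8, 41.9, 35.4 and 28.9 CPM in DIV5 GDNF libraries, which overlap. With GDNF the 3p arm rose by 0.82 on the log2 scale (SE 0.253, edgeR adjusted p = 0.00998), a call lost with DIV5 replicates 3 to 5 only (log2 0.55, adjusted p = 0.0626). Without GDNF it had 0.54 (adjusted p = 0.0672), a value called in 11 of 33 alternatives. miR-7226-3p likewise had 0.54 without GDNF (SE 0.238, edgeR adjusted p = 0.0527), which was called as a rise in 18 of 33 alternatives. The other member that rose with GDNF was miR-9768-5p (log2 0.83, SE 0.331, edgeR adjusted p = 0.0406).

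No tested member was called for GDNF on either day. On DIV1 edgeR called 0 of the 49 members, where 0% of all 542 miRNAs were called, and 1 member had an unadjusted p under 0.05, against 1.29% of all. On DIV5 it called 0, where 0.185% of all were called, and 3 members had an unadjusted p under 0.05, against 16.2% of all. For the difference between the GDNF effects of the days (the interaction) it called 0, where 0% of all were called, and 1 member had an unadjusted p under 0.05, against 9.23% of all. DESeq2 and limma voom also called 0 members in both GDNF comparisons. The median log2 value of the members was −0.14 on DIV1 and 0.13 on DIV5, against 0.03 and 0.00 over all.

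miR-6516-5p had the smallest p among members on DIV1. It had 6.73, 2.75, 1.40, 2.62 and 1.55 CPM in DIV1 control and 4.16, 8.98, 4.98, 7.95 and 15.6 CPM in DIV1 GDNF libraries, where a single read is worth up to 2.60 CPM after TMM scaling. Control library 1 lay inside the GDNF range and the other 4 controls lay below it. The log2 difference was 1.12 (SE 0.439, edgeR unadjusted p = 0.0181, adjusted p = 1.00). The DIV5 values were 2.84 to 5.65 CPM without and 2.33 to 5.01 CPM with GDNF, and the interaction was −1.33 (unadjusted p = 0.0280, edgeR adjusted p = 0.474). With GDNF it fell from DIV1 to DIV5 by 1.23 (SE 0.378, edgeR adjusted p = 0.00962), a call lost with no filter (adjusted p = 0.114).

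On DIV5 the smallest p was that of miR-7688-5p, with 11.3, 10.9, 12.5, 10.6 and 9.82 CPM without and 24.1, 21.0, 10.9, 14.7 and 11.4 CPM with GDNF. The groups overlapped, with GDNF libraries 1 and 2 the highest (log2 0.54, SE 0.236, edgeR unadjusted p = 0.0312, adjusted p = 0.240). miR-6896-5p had 2.35, 4.93, 3.95, 3.93 and 4.15 CPM without and 6.01, 6.42, 10.2, 9.23 and 3.12 CPM with GDNF, which overlap through GDNF library 5 (log2 0.88, SE 0.381, edgeR adjusted p = 0.240). miR-7015-3p had 8.01, 4.93, 12.1, 8.17 and 11.8 CPM without and 8.02, 13.4, 16.6, 15 and 17.9 CPM with GDNF (log2 0.61, SE 0.271, edgeR adjusted p = 0.257), and 0.65 on DIV1. Of the 2 other members that the naming rule took here, miR-7226-3p had a log2 value of 0.42 on DIV1 and miR-6988-3p an interaction of 0.77, neither called.

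A call for GDNF in a member appeared in 1 setting, chosen after seeing the data, which combines a replicate block within each day with leaving out DIV5 control libraries 1 and 5. There miR-6239 was lower with GDNF on DIV1 (log2 −0.52, SE 0.0903, edgeR adjusted p = 0.0311), and miR-6937-5p had an interaction of 0.76 (SE 0.173, edgeR adjusted p = 0.0395). With all libraries and no block miR-6239 had −0.46 on DIV1 (SE 0.449), 0.13 on DIV5 (SE 0.449) and an interaction of 0.59 (SE 0.635, edgeR adjusted p = 0.868). With the block alone its DIV1 value was −0.49 (edgeR adjusted p = 0.998). Leaving out 1 library gave −0.68 to −0.30 on DIV1 and 0.20 to 0.85 for the interaction, and a DIV1 share difference of −3.79 to −1.70 points.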

How the data were processed

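The authors deposited whole-number read counts for each mature miRNA, 1 file per library, not normalized. Per the submitters' processing notes they used cutadapt 1.8.1, STAR 2.4.1d, HTSeq and build mm10. The HTSeq version, the miRNA annotation, and how strand and reads with several places were handled are not given in the sources used here. Of 5 tally lines only the reads without a feature were above 0, and they stayed out of library sizes in the main test.

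The members, lists and tests were chosen with earlier results of these data known. Counts were fitted in R 4.3.3 with edgeR 4.0.16 (filterByExpr, TMM, robust quasi-likelihood), all 20 libraries in 1 fit of 4 groups, two-sided, with adjustment over 542 miRNAs. The procedure was tested on simulated data. An SE is the log2 fold change over the root of F. CPM are TMM-scaled. Alternatives were DESeq2 1.42.0, limma 3.58.1 voom, other scalings, filters and libraries. Shares were tested in Python 3.11.15 with scipy 1.17.1, and hairpins folded with RNAfold 2.7.2. Sequences are from RefSeq, and introns and hosts from GENCODE annotation of the same build.

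Named members were the 10 most abundant, those called for GDNF or else the 3 smallest p, the 8 largest day falls and rises without GDNF (called, at least 10 CPM), hairpins with both arms as members, the 3 highest and 3 lowest dispersion ratios (at least 10 CPM), and the lines at the minimum. Labels do not say whether replicates are separate animals or cultures, so p-values measure only the spread between libraries. Numbers were taken to pair libraries where the deviations of every same-numbered pair correlated above 0.1. This held on DIV5 (0.208 to 0.514) and for 4 of 5 pairs on DIV1 (lowest 0.00625), so DIV1 did not meet it.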

Additional observations from a re-analysis of the deposited data

Results flagged for a closer look

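In 3 of 96 groups checked, 1 library lay far from the other 4, where chance gives about 1 in 20 groups. miR-6516-5p had 6.73 CPM in DIV1 control library 1, with 2.75 CPM in the next. miR-6977-3p had 14.8 CPM in DIV5 control library 2, with 9.08 CPM in the next. miR-6988-3p had 5.72 CPM in DIV5 GDNF library 5, with 7.18 CPM in the next lowest.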

How the results depend on the processing

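Over the alternatives to 46 results of single members, 1347 of 1462 values kept their direction and their side of the threshold, 46 lost a call, 53 gained one and 16 changed sign. The count of members called without GDNF between the days was 20, and it was 13 with a mean of at least 10 CPM, where 27 members were tested, 12 with DIV5 replicates 1 and 2 only, and 17 to 25 with 1 library left out. With GDNF it was 18, then 12 with each of the first 2 settings, and 15 to 20 with 1 library left out. DESeq2 called 23 and 18, and limma voom 21 and 20. Calls over all miRNAs under these alternatives are not given here, so the counts describe the members alone. The same number was the best match for 3 of 5 DIV1 and 2 of 5 DIV5 libraries, a hint from the data and not the design. The replicate block within each day left 0 members called in both GDNF comparisons and in the interaction. The block together with leaving out DIV5 control libraries 1 and 5, chosen after seeing the data, gave 1 for GDNF on DIV1 and 1 for the interaction.

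Signs changed in small values, and the cause was not tested. For GDNF on DIV5, miR-6239 had −0.19 in limma voom, −0.15 with the replicate block, −0.42 in DIV5 replicates 3 to 5, and −0.27 to 0.38 with 1 library left out, negative without DIV5 control library 4 or DIV5 GDNF library 1 or 2. Its share difference there was −0.26 as log2 shares, −0.821 points in replicates 3 to 5 and −0.744 to 0.602 with 1 library left out, and turned negative without DIV5 control library 3 or 4 (−0.00533 and −0.301) or DIV5 GDNF library 1 or 2 (−0.744 and −0.210). Between the days without GDNF, miR-5126 had 0.084 with library sizes that include the reads without a feature and 0.37 with DIV5 replicates 1 and 2 only, miR-6896-5p and miR-6988-3p had 0.033 and 0.11 with those library sizes, and miR-6988-3p 0.11 without DIV5 control libraries 1 and 5. miR-6236 had −0.0012 without those 2 libraries and −0.14 with DIV5 replicates 3 to 5 only. miR-6516-5p had −0.051 to 0.78 with 1 library left out, negative without DIV1 control library 3 or 5 or DIV5 control library 1.

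The fall of the miR-6239 share without GDNF was −8.05 to −6.01 points with 1 library left out, and −6.08 with DIV5 replicates 1 and 2 only (exact permutation p = 0.0952, the smallest possible there). With GDNF it was −5.14 to −3.29 with 1 library left out (exact permutation p = 0.0159 to 0.0635) and −2.08 with DIV5 replicates 1 and 2 only (exact permutation p = 0.381). The unadjusted p of that difference exceeded 0.05 without DIV1 GDNF library 2, 3 or 4 or DIV5 GDNF library 3, 4 or 5. The libraries of fewest reads limit members below 10 CPM, which there rest on a handful of reads.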
